A study of Rattus norvegicus with 27 samples.

Results

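The genes described here encode chemokines, interleukins and the receptors and binding proteins of both families in cultured rat Schwann cells, the glia that wrap peripheral axons. They were chosen by name alone, as every gene in the cell mRNA table whose symbol begins with Ccl, Cxcl, Cx3cl, Ccr, Cxcr or Il followed by a digit. This gave 120 of 17315 genes, of which 33 were chemokine ligands, 15 chemokine receptors, 35 interleukins and 37 interleukin receptors or binding proteins. Of the 120 genes, 27 reached a mean of at least 1 CPM (a gene's estimated count scaled to the total count of its library) at some stage, and these are described one by one. *Il33*, with a highest stage mean of 1.21 CPM, lay just inside that limit, and *Ccl11*, at 0.986 CPM, just outside it. A mean of 1 CPM was reached at all 3 stages by 15 of the 27 genes, at 2 stages by 7 and at 1 stage alone by 5, so for 12 genes the limit was passed only where the gene was high.

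The cells were commercially supplied primary rat Schwann cells used at passages 3 to 5, and 3 stages were sampled with 3 biological replicates each. Undifferentiated cells were kept without dbcAMP (dibutyryl cyclic AMP, which enters cells and mimics the messenger cyclic AMP), in a medium that the labels do not state further. Differentiated cells had been given dbcAMP at 1 mM over 72 h in DMEM with 1% serum after an overnight starvation. Dedifferentiated cells had the same treatment, followed by 72 h without dbcAMP in complete medium with 10% serum, forskolin and 10 ng/mL neuregulin. Stage and medium therefore changed together, and their parts in a difference cannot be told apart. The labels do not say that replicates came from separate animals, so p-values measure the spread between these cultures. Libraries were bulk, in which fewer cells of a type and less RNA per cell cannot be told apart.

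Chemokines are small secreted proteins that direct the migration of cells carrying matching G protein-coupled receptors, and they are named by the spacing of their first cysteines (CC, CXC or CX3C). Interleukins are secreted signals that act through receptors built from a ligand-binding chain and a shared signalling chain, most of which start either the JAK-STAT or the NF-kappaB pathway. In injured peripheral nerve, Schwann cells are known to release chemokines and cytokines such as leukaemia inhibitory factor and interleukin-6, and chemokines draw macrophages into the nerve.

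Libraries held 10058735 to 16212278 estimated counts, so that 3 counts corresponded to 0.185 to 0.298 CPM. Replicate 3 of each stage belonged to another sequencing project than replicates 1 and 2. The summed level of 7 Schwann cell markers was 8242 to 9425 CPM in undifferentiated, 8445 to 11076 in differentiated and 18542 to 21433 in dedifferentiated libraries, with all 7 present at each stage. The summed level of 10 leukocyte markers was 0.403 to 2.36, 3.95 to 5.32 and 2.26 to 3.98 CPM for the same stages, and *Aif1* and *Adgre1* had no count in any library. The highest was *Cd68*, with stage means of 0.724, 3.41 and 1.36 CPM, and the others stayed under 1 CPM in each stage mean. Of 5 T cell markers, *Cd3d*, *Cd3e*, *Cd4* and *Cd8a* had no count at any stage, and the fifth, *Cd3g*, carried the list's summed 0.0961 to 0.589, 2.62 to 4.35 and 1.81 to 3.05 CPM. Fibroblast markers split: *Col1a1* and *Col1a2*, which Schwann cells also make, carried nearly all of the summed 24363 to 29064, 11924 to 15586 and 15935 to 19352 CPM, while *Lum* had no count in any library. Endothelial markers summed to 1.21 to 3.08, 6.78 to 9.11 and 11.9 to 22.5 CPM, and *Cdh5* had no count at any stage. Most of these sums came from *Tek*, with stage means of 1.257, 6.605 and 5.229 CPM, and *Vwf*, with 0, 0.919 and 10.1 CPM. The other endothelial markers stayed under 1 CPM in each stage mean. Pericyte and smooth muscle markers summed to 5.23 to 10.5, 3.9 to 4.63 and 7.38 to 13.3 CPM, and *Rgs5* and *Kcnj8* had no count in any library. *Acta2* had stage means of 3.16, 0.199 and 7.3 CPM, *Myh11* 4.19, 3.91 and 3.35 CPM, and the rest stayed under 1 CPM. The part of these cell types in the results was not tested.

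Between undifferentiated and differentiated cells, *Il34*, *Il16*, *Cxcr4*, *Cx3cl1*, *Ccl2* and *Cxcl14* were among the genes that rose, and *Cxcl12*, *Il13ra1* and *Il1rapl2* among those that fell. Of the 120 genes, 28 had counts high enough to be tested, the 27 above and *Ccl11*, and 17 of them changed, 10 upward and 7 downward (edgeR quasi-likelihood test, adjusted p under 0.05 over all genes). The background was similar: 59.6% of all 10372 tested genes changed in this comparison, 31.7% upward and 27.9% downward. On withdrawal of dbcAMP 13 of the 28 changed, 7 upward and 6 downward, where 46.4% of all genes changed, 23.2% upward and 23.2% downward. Between dedifferentiated and undifferentiated cells 12 of the 28 differed, 6 higher and 6 lower, where 29.4% of all genes differed, 16.1% higher and 13.3% lower. The median size of the log2 change over the 28 genes was 1.19, 1.10 and 0.87 in the 3 comparisons in order (0.75 in the last with *Cx3cl1*, which was near 0 at both of its stages, set to no change). Over all tested genes it was 0.47, 0.36 and 0.26. The signed medians were -0.19, 0.16 and -0.06 (-0.02 in the last with *Cx3cl1* set to no change) for the 28 genes, and 0.05, -0.01 and 0.02 for all genes. Libraries of the stages compared did not overlap for 10 higher and 8 lower, 8 higher and 7 lower, and 7 higher and 7 lower of the 28 genes, where 38.9% and 27.4%, 28.3% and 30.2%, and 26.8% and 17.1% of all tested genes did so (66.3%, 58.5% and 43.9% in all). These medians and counts rest on genes that had passed a filter on low counts and are given as a description.

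Each of the 17, 13 and 12 changes had the same direction in both sequencing projects. These calls used the libraries of both projects, so the agreement was partly fixed by the selection and is no independent check. In the first project alone, with 2 libraries per stage, 17, 9 and 5 of 27 tested genes were called in the 3 comparisons. Of these, 16, 9 and 5 were called with all libraries. Counts over all genes fell there too, to 4358, 2606 and 1283 of 10371 tested, against 6179, 4809 and 3045 of 10372 with all libraries. The second project held 1 library per stage and allows no test. The comparisons share libraries, so their results are not independent.

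**Figure D1:**
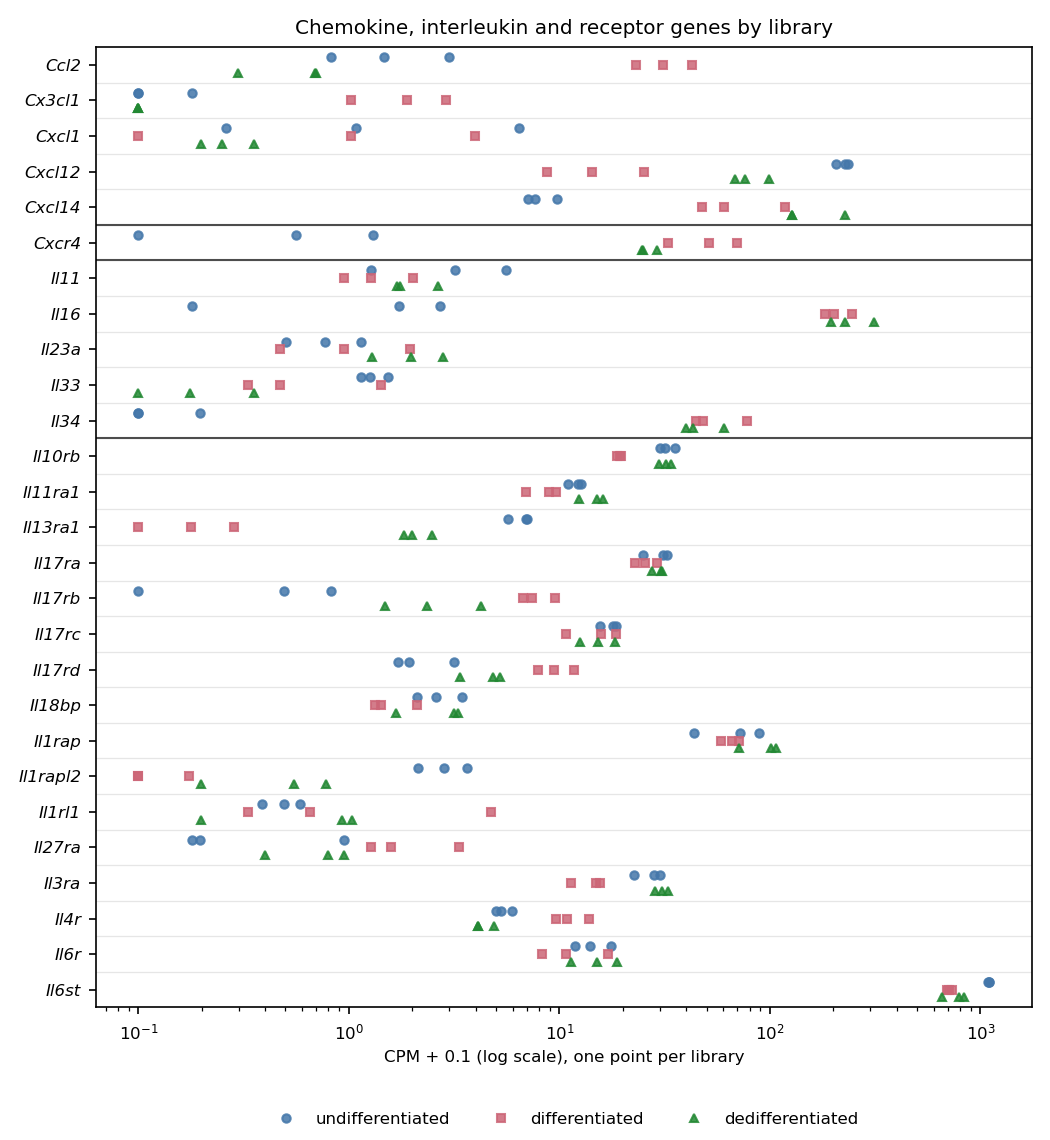
CPM plus 0.1 (log axis) of the 27 genes in each of the 9 libraries, 1 point per library, grouped by role from chemokine ligands at the top to interleukin receptors at the bottom. The undifferentiated points of Il34, Il16 and Cxcr4 lie far left of the differentiated and dedifferentiated ones, those of Cxcl12 lie right of them, and those of Il17ra, Il17rc and Il6r overlap.

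Among the ligands, *Cxcl12*, the homeostatic chemokine that binds the receptor CXCR4, fell under dbcAMP and returned in part. Its values were 205, 234 and 228 CPM in undifferentiated libraries, 25.2, 8.64 and 14.2 CPM in differentiated and 99.3, 68.3 and 75.7 CPM in dedifferentiated ones (replicates 1, 2 and 3). The 3 stages did not overlap, and the dedifferentiated libraries lay between the others. Differentiated cells were 14.4-fold below undifferentiated cells, a log2 fold change of -3.85 with an SE of 0.311 (edgeR adjusted p = 1.98e-06), and dedifferentiated cells were 5.09-fold above differentiated cells (SE of the log2 change 0.3; edgeR adjusted p = 0.000116). They lay 2.83-fold below undifferentiated cells (edgeR adjusted p = 0.00235), a call that the first sequencing project alone did not reach (edgeR adjusted p = 0.0642).

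*Cxcr4*, the signalling receptor of that ligand, was the single chemokine receptor of the 15 that reached 1 CPM, and it moved the other way on differentiation. It measured 1.21, 0 and 0.458 CPM in undifferentiated, 69.8, 32.9 and 51 CPM in differentiated and 29.1, 25 and 24.6 CPM in dedifferentiated libraries. All libraries of the later 2 stages lay far above all undifferentiated ones. The log2 change on differentiation was 6.40 (SE 0.492; edgeR adjusted p = 1.36e-06), and it was 7.48 without undifferentiated replicate 1, the library with most of the counts at that stage. Dedifferentiated cells kept a log2 difference of 5.44 from undifferentiated cells (edgeR adjusted p = 2.31e-05; 6.53 without the same library). The fall on withdrawal, by 0.96 on the log2 scale, was near the threshold (edgeR adjusted p = 0.0305). The call was lost without differentiated replicate 1, differentiated replicate 3, dedifferentiated replicate 1, dedifferentiated replicate 2 or dedifferentiated replicate 3 (adjusted p = 0.0507 to 0.126), by DESeq2's Wald test (adjusted p = 0.211) and in the first project alone (adjusted p = 0.219).

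*Ackr3*, an atypical receptor that takes up the same ligand and lies outside the name rule, was looked at after its values were seen. It measured 0.645, 1.63 and 1.83 CPM in undifferentiated, 13, 6.41 and 7.53 CPM in differentiated and 2.97, 4.67 and 3.23 CPM in dedifferentiated libraries, and no stage overlapped another. Its log2 changes were 2.65 on differentiation, -1.31 on withdrawal and 1.34 against undifferentiated cells (edgeR adjusted p = 0.000209, 0.0134 and 0.0347). The ligand had its lowest and both receptors their highest stage mean in differentiated cells.

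**Figure D2:**
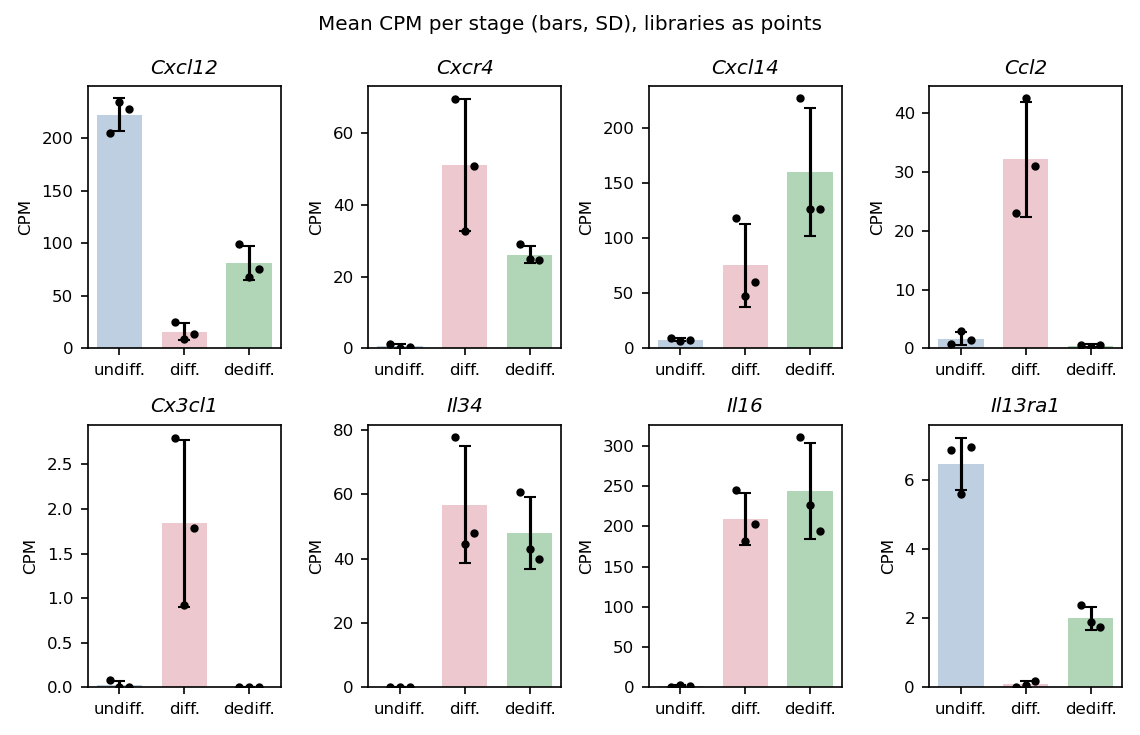
Mean CPM per stage (bars, starting at 0) with SD and the 3 libraries as points for 8 genes. Cxcl12 is high in undifferentiated cells and low in differentiated cells, Ccl2 and Cx3cl1 peak in differentiated cells, and Il34, Il16, Cxcl14 and Cxcr4 are high in both later stages.

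*Cxcl14*, another homeostatic CXC chemokine, rose at each step. It measured 9.59, 7.02 and 7.52 CPM in undifferentiated, 118, 47.4 and 60.4 CPM in differentiated and 227, 127 and 127 CPM in dedifferentiated libraries. Replicate 1 was the highest library at all 3 stages, and the stages did not overlap. Differentiated cells were 9-fold above undifferentiated cells, a log2 fold change of 3.17 with an SE of 0.387 (edgeR adjusted p = 4.38e-05), and dedifferentiated cells 19.2-fold above them (edgeR adjusted p = 2.39e-05). The further rise on withdrawal was 2.14-fold (edgeR adjusted p = 0.0197). This gene was no longer called without differentiated replicate 2, differentiated replicate 3 or dedifferentiated replicate 1 (adjusted p = 0.0653 to 0.0784) and in the first project alone (adjusted p = 0.109).

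*Ccl2*, the CC chemokine best known for attracting monocytes, was high under dbcAMP alone among the 3 stages. It measured 0.725, 2.88 and 1.37 CPM in undifferentiated, 23.1, 42.4 and 30.9 CPM in differentiated and 0.593, 0.199 and 0.602 CPM in dedifferentiated libraries. Every differentiated library lay far above every library of the other stages. Its level rose 19.1-fold on differentiation, a log2 fold change of 4.25 with an SE of 0.386 (edgeR adjusted p = 4.69e-06), and fell 64.8-fold on withdrawal (edgeR adjusted p = 3.65e-06). Dedifferentiated cells lay 3.4-fold below undifferentiated cells with an adjusted p of 0.0451 (edgeR), on 17 and 60 counts in all. Its adjusted p rose past the threshold without undifferentiated replicate 2, undifferentiated replicate 3, dedifferentiated replicate 1, dedifferentiated replicate 2 or dedifferentiated replicate 3 (adjusted p = 0.0666 to 0.142), with the sequencing project as a factor (adjusted p = 0.06), with library size alone (adjusted p = 0.052) and in the first project alone (adjusted p = 0.154).

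*Cx3cl1*, a chemokine that is made as a membrane-bound protein and binds the receptor CX3CR1, was also seen in differentiated cells. It measured 2.8, 0.926 and 1.79 CPM there, on 79 counts, against 1 count in undifferentiated and 0 in dedifferentiated cells. The ratio to undifferentiated cells was 70.4 (95% interval 12.3 to 2816, counting error only), and the level was at least 21.7-fold higher than in dedifferentiated cells, taking 3 counts over that stage as the floor. Both differences passed the test (edgeR adjusted p = 0.000857 and 0.00101). The fitted log2 change on differentiation was 5.64, 7.57 without undifferentiated replicate 1, which held the single count, and 5.04 without undifferentiated replicate 3. *Cx3cr1*, its receptor, had no count in any library.

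*Cxcl1*, a neutrophil-attracting CXC chemokine, varied widely between the replicates of a stage. It measured 0.161, 6.35 and 0.981 CPM in undifferentiated, 0, 3.86 and 0.925 CPM in differentiated and 0.254, 0.0994 and 0.15 CPM in dedifferentiated libraries. Replicate 2 was the highest library of the first 2 stages and the lowest of the third. No comparison passed the test (edgeR adjusted p = 0.622, 0.137 and 0.0944). Without undifferentiated replicate 1, dedifferentiated cells were called lower than undifferentiated cells (log2 change -4.34 against -3.79; adjusted p = 0.0422). *Cxcr2*, the main receptor of this chemokine, had no count in any library. *Ccl11*, an eosinophil attractant, measured 0.645, 0.577 and 0.851 CPM, 0.442, 1.16 and 1.36 CPM and 0.0848, 0.0994 and 1.05 CPM in undifferentiated, differentiated and dedifferentiated libraries, with overlapping libraries and no call (edgeR adjusted p = 0.605, 0.232 and 0.541).

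**Figure D3:**
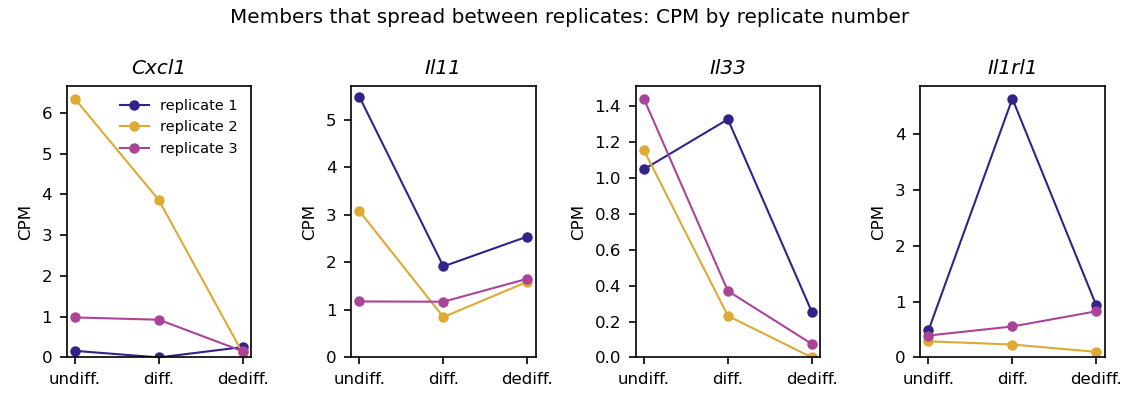
CPM of Cxcl1, Il11, Il33 and Il1rl1 at the 3 stages, with libraries of equal replicate number joined by a line (linear axes from 0). Replicate 2 carries the high Cxcl1 values, and replicate 1 the high Il1rl1 value in differentiated cells.

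The sequence before the start site is shown for 5 genes, as 250 bases up to the start site on the strand of the gene (assembly GRCr8). Capitals mark a cyclic AMP response element in its short form (TGACG on either strand) or an AP-1 site (TGANTCA, on either strand), chosen because cyclic AMP acts through CREB at the former and the repair factor c-Jun through the latter. The first 4 genes were chosen after their values and matches were seen, as genes whose stages lay far apart and that hold a match. *Il13ra1* is shown as a gene whose stages also lay far apart and that holds neither sequence.
Cxcl12, chr4:152060531-152060780, plus strand: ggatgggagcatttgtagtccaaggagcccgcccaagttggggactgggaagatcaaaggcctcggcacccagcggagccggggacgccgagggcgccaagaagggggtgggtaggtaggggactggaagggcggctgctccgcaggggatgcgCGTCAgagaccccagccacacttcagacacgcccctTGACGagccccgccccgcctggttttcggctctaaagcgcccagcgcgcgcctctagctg
Cxcr4, chr13:42634289-42634538, minus strand: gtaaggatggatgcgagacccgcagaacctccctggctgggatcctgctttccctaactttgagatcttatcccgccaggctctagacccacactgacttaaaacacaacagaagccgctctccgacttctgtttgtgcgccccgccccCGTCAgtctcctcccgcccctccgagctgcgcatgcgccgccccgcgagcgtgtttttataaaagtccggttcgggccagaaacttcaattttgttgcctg
Cxcl14, chr17:8322900-8323149, plus strand: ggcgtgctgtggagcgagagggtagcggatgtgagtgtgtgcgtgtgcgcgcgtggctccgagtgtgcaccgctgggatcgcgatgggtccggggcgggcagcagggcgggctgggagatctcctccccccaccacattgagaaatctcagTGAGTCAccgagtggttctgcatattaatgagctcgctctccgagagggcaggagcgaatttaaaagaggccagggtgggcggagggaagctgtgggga
Il16, chr1:147116743-147116992, minus strand: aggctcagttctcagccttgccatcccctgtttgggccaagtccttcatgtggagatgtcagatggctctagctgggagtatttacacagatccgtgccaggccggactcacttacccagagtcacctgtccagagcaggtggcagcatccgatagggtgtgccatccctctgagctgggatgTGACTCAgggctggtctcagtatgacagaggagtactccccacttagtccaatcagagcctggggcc
Il13ra1, chrX:120214355-120214604, plus strand: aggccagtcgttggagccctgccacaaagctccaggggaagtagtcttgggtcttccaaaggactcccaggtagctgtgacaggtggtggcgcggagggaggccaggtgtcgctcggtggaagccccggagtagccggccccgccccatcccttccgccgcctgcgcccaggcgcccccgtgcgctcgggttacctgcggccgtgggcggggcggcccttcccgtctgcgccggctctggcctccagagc
*Cxcl12* and *Cxcr4*, which moved in opposite directions on differentiation, both held the short element, and *Cxcl14* and *Il16* an AP-1 site. Neither sequence was found for *Il13ra1*, *Cx3cl1* or *Il17rb*, whose fitted log2 changes on differentiation were larger in size than that of *Cxcl14*. The short element was also found for *Il1rapl2*, with a log2 change of -6.45 on differentiation. It was found too for *Cxcl1*, *Il33* and *Il6r*, and an AP-1 site for *Il11*, none of which was called on differentiation with all libraries. The short element was found in 6 of the 23 promoters available for the 27 genes and in 19.0% of 27457 RefSeq promoters of this length, and AP-1 sites were found in 3 of 23 and 6.36%. The full element TGACGTCA, which contains the short one on each strand, was found in 0 of 23 and 1.7%. A match describes the letters and shows neither binding nor a cause.

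Of the 35 interleukins 5 reached 1 CPM, and 2 of them, *Il34* and *Il16*, were high in both later stages. *Il34*, a ligand of the CSF1 receptor that sustains macrophages and microglia, measured 0, 0.0961 and 0 CPM in undifferentiated, 77.6, 44.6 and 47.8 CPM in differentiated and 60.7, 43 and 40.0 CPM in dedifferentiated libraries. The undifferentiated libraries held 1 count in all, against 2406 and 1681. The ratio to undifferentiated cells was 2144 in differentiated cells (95% interval 384 to 84729.9) and 1822 in dedifferentiated cells (327 to 72001), with intervals that cover counting error only. Both differences passed the test (edgeR adjusted p = 9.18e-08 and 1.03e-06). The fitted log2 changes of 10.58 and 10.35 moved to between 9.97 and 12.52 and between 9.74 and 12.30 when a library was left out, the highest without undifferentiated replicate 2, which held the single count, and the lowest without undifferentiated replicate 3. On withdrawal no change was detected, with a log2 change of -0.23 (95% interval -0.74 to 0.28; edgeR adjusted p = 0.438). RefSeq places *Rpl29l3* over part of this gene.

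The other ligand of the same receptor, *Csf1*, moved differently. It measured 116, 86.1 and 98.8 CPM in undifferentiated, 50.6, 33.3 and 60.4 CPM in differentiated and 85.6, 89.1 and 89.4 CPM in dedifferentiated libraries, a fall by 1.12 on the log2 scale on differentiation and a rise of 0.88 on withdrawal (edgeR adjusted p = 0.000419 and 0.00319). Undifferentiated and dedifferentiated cells did not differ detectably (edgeR adjusted p = 0.36). The receptor *Csf1r*, looked at after its values were seen, had no count in undifferentiated libraries, 0.295, 0.849 and 0.987 CPM in differentiated and 0.933, 0.696 and 0.527 CPM in dedifferentiated ones. Relative to undifferentiated cells it was at least 9.21-fold higher under dbcAMP and at least 9.03-fold higher after withdrawal, against a floor of 3 counts over that stage (edgeR adjusted p = 0.00231 and 0.0062). It is also one of the leukocyte markers above.

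*Il16* encodes a precursor whose released end attracts cells carrying CD4. It measured 0.0806, 2.6 and 1.64 CPM in undifferentiated, 245, 182 and 203 CPM in differentiated and 311, 227 and 194 CPM in dedifferentiated libraries. Every library of the later 2 stages exceeded every undifferentiated library, and those of the later 2 stages overlapped. The log2 change was 7.17 on differentiation (SE 0.431; edgeR adjusted p = 2.25e-07) and 7.40 between dedifferentiated and undifferentiated cells (SE 0.433; edgeR adjusted p = 1.47e-06). On withdrawal it was 0.23 (95% interval -0.39 to 0.85; edgeR adjusted p = 0.524). *Cd4*, which encodes the known receptor, had no count at any stage.

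The other 3 interleukins stayed at low counts. *Il33*, a nuclear alarm signal of the interleukin-1 family, measured 1.05, 1.15 and 1.44 CPM in undifferentiated, 1.33, 0.232 and 0.37 CPM in differentiated and 0.254, 0 and 0.0752 CPM in dedifferentiated libraries. It was lower in dedifferentiated than in undifferentiated cells, by -3.37 in log2 units (SE 0.866; edgeR adjusted p = 0.0145), on 4 and 47 counts in all. The call was lost without dedifferentiated replicate 3 (adjusted p = 0.0617) and in the first project alone (adjusted p = 0.163), and the log2 change was -4.63 without dedifferentiated replicate 1. On differentiation and on withdrawal it was not called (edgeR adjusted p = 0.204 and 0.057). Without differentiated replicate 1, its highest library there, the fall on differentiation was called (log2 change -2.03 against -0.98; adjusted p = 0.021). The fall on withdrawal was called without differentiated replicate 2 or dedifferentiated replicate 1 (log2 change -2.77 and -3.62 against -2.39; adjusted p = 0.0349 and 0.0422) and by DESeq2's Wald test (adjusted p = 0.041).

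*Il11*, a gp130 cytokine, measured 5.48, 3.08 and 1.18 CPM in undifferentiated, 1.92, 0.849 and 1.17 CPM in differentiated and 2.54, 1.59 and 1.65 CPM in dedifferentiated libraries. Replicate 1 was highest at every stage, and the stages overlapped. On differentiation its log2 change of -1.36 missed the threshold (SE 0.542; edgeR adjusted p = 0.0502). With the replicate number as a block it was called (edgeR adjusted p = 0.0233), as it was with DESeq2's size factors, by the Wald test, without the filter and in the first project alone (adjusted p = 0.0462, 0.0258, 0.0393 and 0.0441), and without undifferentiated replicate 3 or differentiated replicate 1 (adjusted p = 0.00685 and 0.0383). *Il23a*, which encodes a chain that must join the product of *Il12b* to form a cytokine, measured 0.403, 0.673 and 1.05 CPM, 0.368, 0.849 and 1.85 CPM and 2.71, 1.19 and 1.88 CPM in undifferentiated, differentiated and dedifferentiated libraries. The dedifferentiated libraries lay above the undifferentiated ones, and no comparison was called (edgeR adjusted p = 0.523, 0.198 and 0.101). Without differentiated replicate 3 the rise on withdrawal was called (log2 change 1.67 against 0.91; adjusted p = 0.0489). *Il12b* had no count in any library.

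Of the 37 interleukin receptors and binding proteins 16 reached 1 CPM. Differentiation changed 10 of them, 4 upward and 6 downward, withdrawal 8, 5 upward and 3 downward, and 5 differed between dedifferentiated and undifferentiated cells, 2 higher and 3 lower. These shares were near those of all tested genes, 59.6%, 46.4% and 29.4%. *Il6st* encodes gp130, the signalling chain shared by receptors of the gp130 cytokines. It measured 1102, 1091 and 1103 CPM in undifferentiated, 690.2, 731 and 711 CPM in differentiated and 659.7, 792 and 838 CPM in dedifferentiated libraries. The undifferentiated libraries were close to each other and above all others. It fell 1.61-fold on differentiation, a log2 fold change of -0.69 with an SE of 0.0933 (edgeR adjusted p = 9.36e-05). On withdrawal its log2 change was 0.12 (95% interval -0.09 to 0.32; edgeR adjusted p = 0.333), and dedifferentiated cells stayed 1.49-fold below undifferentiated cells (edgeR adjusted p = 0.00104). Without dedifferentiated replicate 1, the lowest of its stage, the rise on withdrawal was called (adjusted p = 0.0327).

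Of the chains that pair with gp130, *Il11ra1* also fell on differentiation, *Il27ra* rose and *Il6r* was not called with all libraries. *Il11ra1*, the receptor chain for the product of *Il11*, measured 10.9, 12.5 and 12.1 CPM, 6.85, 8.8 and 9.56 CPM and 12.3, 16 and 15 CPM in undifferentiated, differentiated and dedifferentiated libraries. It fell 1.47-fold on differentiation and rose 1.73-fold on withdrawal (edgeR adjusted p = 0.0129 and 0.00245), the former not called in the first project alone (adjusted p = 0.0641). In RefSeq this gene overlaps *Ccl27*, one of the chemokine genes under 1 CPM. *Il27ra*, a receptor chain of the same family, measured 0.0806, 0.0961 and 0.851 CPM, 1.18, 3.24 and 1.48 CPM and 0.848, 0.696 and 0.301 CPM in the same order and rose on differentiation by a log2 change of 2.29 (edgeR adjusted p = 0.0184). This gene was no longer called without undifferentiated replicate 1, undifferentiated replicate 2 or differentiated replicate 2 (adjusted p = 0.0505 to 0.0797), and without undifferentiated replicate 3 the log2 change was 4.25. *Il6r*, the receptor chain for the product of *Il6*, overlapped at all stages, at 14.4 ± 2.96, 11.9 ± 4.48 and 15 ± 3.75 CPM (SD, n = 3; 95% interval of the log2 change on differentiation -0.97 to 0.29). Its adjusted p was 0.331, 0.341 and 0.979 (edgeR), and without differentiated replicate 1, the highest of its stage, it was called lower on differentiation (log2 change -0.68; adjusted p = 0.0475). RefSeq places it over part of *She*. *Il6* itself stayed at or under 0.228 CPM in each stage mean.

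Of 9 further genes for gp130 cytokines and their receptors 7 were tested. Of these, 1 rose and 2 fell on differentiation, 2 rose and 1 fell on withdrawal, and 1 differed upward and 1 downward between dedifferentiated and undifferentiated cells (all genes: 59.6%, 46.4% and 29.4% called). *Clcf1*, a neurotrophic ligand of the ciliary neurotrophic factor receptor, measured 97.4 ± 13.5, 12.7 ± 5.59 and 58 ± 10.3 CPM in undifferentiated, differentiated and dedifferentiated cells (SD, n = 3), and it fell 7.98-fold on differentiation and rose 4.59-fold on withdrawal (edgeR adjusted p = 5.15e-06 and 9.5e-05). *Cntf*, ciliary neurotrophic factor, rose on withdrawal from 11.6 ± 4.99 to 42.6 ± 9.16 CPM (SD, n = 3; edgeR adjusted p = 0.00385). *Lifr*, the receptor of leukaemia inhibitory factor, rose on differentiation from 5.41 ± 2.1 to 9.32 ± 1.05 CPM (SD, n = 3; edgeR adjusted p = 0.0392), and *Cntfr*, the ciliary neurotrophic factor receptor, was not called in any comparison (edgeR adjusted p = 0.154, 0.643 and 0.105).

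The *Il17r* receptor family split into 2 genes that changed and 2 that were not called. *Il17rb*, a receptor chain for the products of *Il17b* and *Il25*, measured 0.725, 0 and 0.393 CPM in undifferentiated, 9.43, 6.64 and 7.28 CPM in differentiated and 4.15, 1.39 and 2.26 CPM in dedifferentiated libraries, and no stage overlapped another. Its log2 change was 4.23 on differentiation and 2.67 against undifferentiated cells at the last stage (edgeR adjusted p = 0.000132 and 0.0099), and 4.99 and 3.44 without undifferentiated replicate 1. The first project alone did not call the latter (adjusted p = 0.108). Its fall on withdrawal by 1.56 on the log2 scale passed the test (edgeR adjusted p = 0.0205). Its adjusted p rose past the threshold without differentiated replicate 1, dedifferentiated replicate 2 or dedifferentiated replicate 3 (adjusted p = 0.0616 to 0.0745) and in the first project alone (adjusted p = 0.171). RefSeq places *Actr8* and *Chdh* over part of this gene on the other strand, and whether the counting used strand is not given in the sources used here.

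*Il17rd*, a membrane protein also known as Sef that restrains fibroblast growth factor signalling, measured 1.61, 1.83 and 3.08 CPM, 7.81, 11.7 and 9.38 CPM and 4.75, 3.28 and 5.11 CPM in undifferentiated, differentiated and dedifferentiated libraries. It rose 4.17-fold on differentiation and fell 2.16-fold on withdrawal (edgeR adjusted p = 0.000106 and 0.0063). Dedifferentiated cells were 1.93-fold above undifferentiated cells (edgeR adjusted p = 0.0326). The call was lost without undifferentiated replicate 1, undifferentiated replicate 2, dedifferentiated replicate 1 or dedifferentiated replicate 3 (adjusted p = 0.0829 to 0.109) and in the first project alone (adjusted p = 0.0921). RefSeq places *Arhgef3* over part of it. *Il17ra*, the chain shared by this family, measured 29.4 ± 4.13, 25.7 ± 3.22 and 29.4 ± 1.79 CPM (SD, n = 3), and *Il17rc*, its partner for the product of *Il17a*, 17.2 ± 1.56, 15 ± 3.97 and 15.3 ± 2.97 CPM. Libraries of all stages overlapped for both. The 95% intervals of their log2 changes on differentiation were -0.54 to 0.02 and -0.70 to 0.17 (edgeR adjusted p = 0.103 and 0.264), and without undifferentiated replicate 1 *Il17ra* was called lower (adjusted p = 0.0345).

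*Il4r* and *Il13ra1*, whose products join to form the type II receptor for the interleukins encoded by *Il4* and *Il13*, moved in opposite directions on differentiation and on withdrawal. *Il4r* measured 5.88, 5.19 and 4.91 CPM in undifferentiated, 13.8, 10.7 and 9.5 CPM in differentiated and 3.98, 4.77 and 3.99 CPM in dedifferentiated libraries. It rose 2.04-fold on differentiation, a log2 fold change of 1.03 with an SE of 0.203 (edgeR adjusted p = 0.00129), and fell 2.65-fold on withdrawal (edgeR adjusted p = 0.000322). Its dedifferentiated libraries lay below the undifferentiated ones, without a call (log2 change -0.38; edgeR adjusted p = 0.216). *Il13ra1* measured 6.85, 5.58 and 6.94 CPM, 0, 0.0772 and 0.185 CPM and 2.37, 1.89 and 1.73 CPM in the same order, and no stage overlapped another. The differentiated libraries held 4 counts in all. Its log2 change was -6.04 on differentiation, 4.30 on withdrawal and -1.74 between dedifferentiated and undifferentiated cells (edgeR adjusted p = 1.78e-06, 9.16e-05 and 0.0025). Without differentiated replicate 3 the first 2 were -7.13 and 5.39, and the first project alone did not call the last (adjusted p = 0.0579). *Il4* and *Il13* had no count in any library.

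*Il3ra* and *Il10rb* fell on differentiation and returned. *Il3ra*, the ligand-binding chain of the receptor for the product of *Il3*, measured 22.5, 30.0 and 28 CPM, 11.3, 14.9 and 15.5 CPM and 28.4, 30.6 and 32.7 CPM in undifferentiated, differentiated and dedifferentiated libraries. It fell 2.01-fold and then rose 2.22-fold (edgeR adjusted p = 0.000129 and 9.5e-05). *Il10rb*, a chain shared by receptors of the *Il10* family and of type III interferons, measured 31.7, 29.9 and 35.5 CPM, 19.4, 18.6 and 19.4 CPM and 32, 29.7 and 33.7 CPM. It fell 1.76-fold and rose 1.68-fold (edgeR adjusted p = 4.05e-05 and 0.000153). The differentiated libraries of both genes lay below all others. Between dedifferentiated and undifferentiated cells neither was called, with 95% intervals of the log2 difference of -0.16 to 0.45 and -0.29 to 0.14 (edgeR adjusted p = 0.477 and 0.616). *Il3* and *Il10* had no count in any library.

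In the interleukin-1 receptor family, *Il1rapl2*, an accessory protein-like receptor best known from neurons, measured 2.74, 2.02 and 3.53 CPM in undifferentiated, 0.0737, 0 and 0 CPM in differentiated and 0.678, 0.0994 and 0.451 CPM in dedifferentiated libraries. The stages did not overlap, and they held 109, 1 and 15 counts in all. Undifferentiated cells were 122 times differentiated cells (95% interval 21.5 to 4874, counting error only; edgeR adjusted p = 4.81e-05). Dedifferentiated cells were 18.2 times differentiated cells (2.81 to 768; edgeR adjusted p = 0.0142) and differed from undifferentiated cells by a log2 change of -2.74 (edgeR adjusted p = 0.00331). On withdrawal the call was lost without differentiated replicate 3 (adjusted p = 0.0532), and the first project alone called neither of these 2 (adjusted p = 0.143 and 0.0843). The fitted log2 changes on differentiation and withdrawal, -6.45 and 3.71, were -8.20 and 5.46 without differentiated replicate 1. RefSeq places 7 other entries over part of this gene, among them *Tex13a* and *Hnrnpa1-ps22*.

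*Il1rap*, the signalling chain that joins the receptors of this family, measured 67.9 ± 23, 65.1 ± 6.32 and 93 ± 19.3 CPM in undifferentiated, differentiated and dedifferentiated cells (SD, n = 3) and was not called (edgeR adjusted p = 0.665, 0.0708 and 0.188). Its dedifferentiated libraries lay just above the differentiated ones, and DESeq2's Wald test called that difference (adjusted p = 0.0404), as did edgeR's test without dedifferentiated replicate 1 (adjusted p = 0.0295). *Il1rl1*, the receptor for the product of *Il33*, measured 0.483, 0.288 and 0.393 CPM, 4.64, 0.232 and 0.555 CPM and 0.933, 0.0994 and 0.827 CPM. Its mean in differentiated cells rested on replicate 1, and no comparison was called (edgeR adjusted p = 0.0986, 0.234 and 0.717). Without differentiated replicate 2 the rise on differentiation was called (log2 change 2.64 against 2.12; adjusted p = 0.0317). *Il18bp*, a secreted protein that neutralises the product of *Il18*, measured 2.62 ± 0.669, 1.52 ± 0.422 and 2.6 ± 0.89 CPM (SD, n = 3). Its differentiated libraries lay below all undifferentiated ones, the nearest by a narrow margin, and no comparison passed the test (edgeR adjusted p = 0.0661, 0.106 and 0.907). Without dedifferentiated replicate 3 it was called higher on withdrawal (log2 change 1.06 against 0.78; adjusted p = 0.0429). *Il1r1*, the signalling receptor for the products of *Il1a* and *Il1b*, stayed under 1 CPM, with a highest stage mean of 0.894 CPM.

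**Figure D4:**
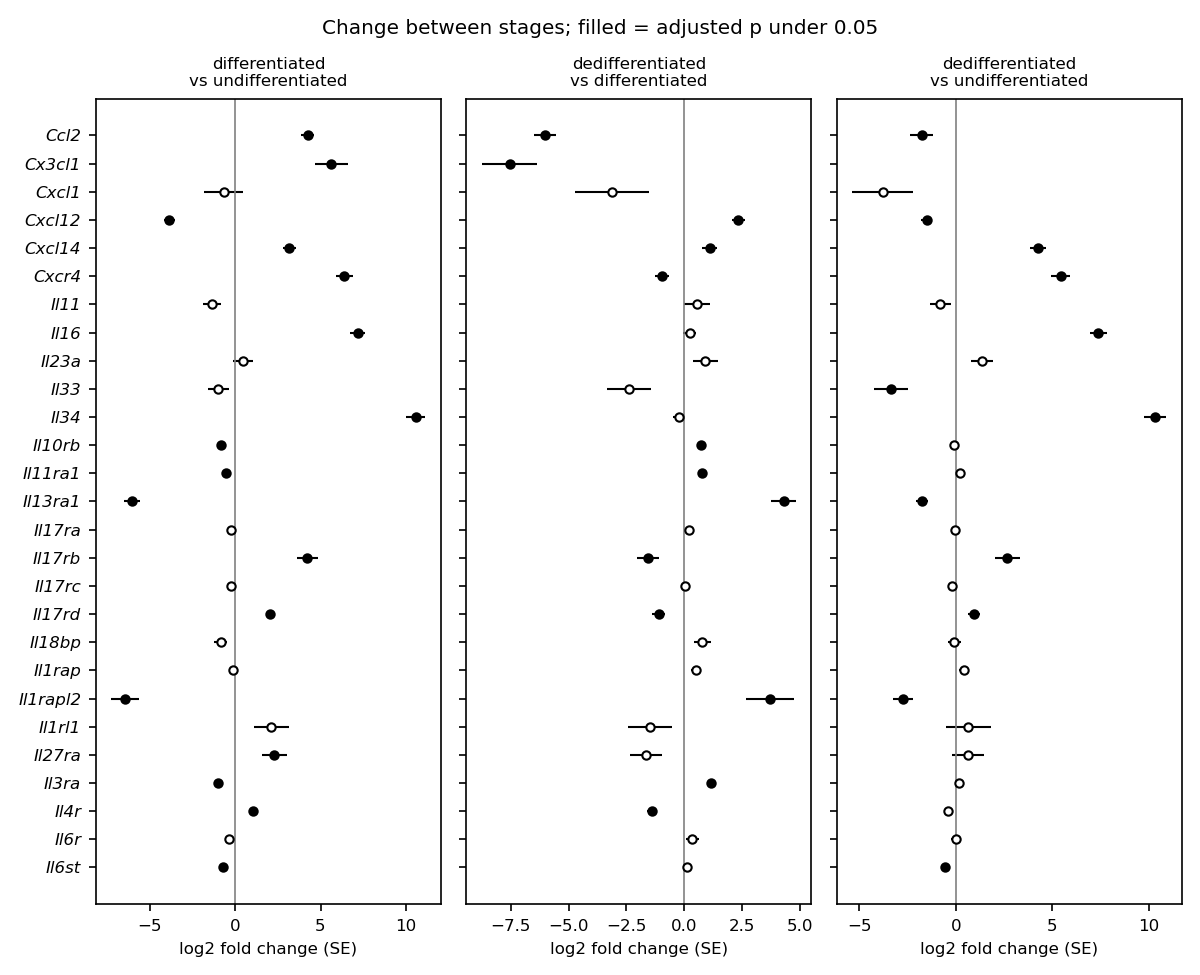
Fitted log2 fold change with SE of the 27 genes in the 3 comparisons, with filled points for an edgeR adjusted p under 0.05 (x axes differ). Cx3cl1 is left out of the last panel because both stages held at most 1 count, and the sizes for Il34, Cx3cl1 and Il1rapl2 depend on the prior count where a stage held 1 count or none.

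The other 93 of the 120 genes stayed under 1 CPM at each stage. Of these, 48 had no count in any library, which over 115987112 counts allows a level of up to 0.0259 CPM (3 counts, counting error only). They included ligands and cytokines typical of activated leukocytes. The 17 chemokine ligands without a count were *Ccl1*, *Ccl12*, *Ccl19*, *Ccl20*, *Ccl21*, *Ccl24*, *Ccl26*, *Ccl3*, *Ccl4*, *Ccl5*, *Ccl6*, *Cxcl13*, *Cxcl17*, *Cxcl2*, *Cxcl3*, *Cxcl6* and *Cxcl9*. The 7 chemokine receptors were *Ccr1*, *Ccr1l1*, *Ccr3*, *Ccr6*, *Cxcr1*, *Cxcr2* and *Cxcr6*. The 17 interleukins were *Il10*, *Il12b*, *Il13*, *Il17c*, *Il1a*, *Il1b*, *Il1f10*, *Il2*, *Il20*, *Il22*, *Il24*, *Il3*, *Il36a*, *Il36b*, *Il4*, *Il5* and *Il9*, and the 7 receptors *Il10ra*, *Il12rb2*, *Il13ra2*, *Il18r1*, *Il20rb*, *Il2ra* and *Il5ra*. A further 45 genes had counts in some library. Among them were the chemokine ligands *Ccl11*, *Ccl17*, *Ccl22*, *Ccl25*, *Ccl27*, *Ccl28*, *Ccl7*, *Ccl9*, *Cxcl10*, *Cxcl11* and *Cxcl16*, the receptors *Ccr10*, *Ccr4*, *Ccr7*, *Ccr9*, *Cxcr3* and *Cxcr5*, the interleukins and antagonists *Il12a*, *Il15*, *Il17a*, *Il17b*, *Il17f*, *Il18*, *Il1rn*, *Il21*, *Il25*, *Il36g*, *Il36rn*, *Il6* and *Il7*, and the interleukin receptors *Il12rb1*, *Il17re*, *Il1r1*, *Il1r2*, *Il1rapl1*, *Il1rl2*, *Il20ra*, *Il21r*, *Il22ra1*, *Il22ra2*, *Il2rb*, *Il2rg*, *Il31ra* and *Il9r*. Except for *Ccl11*, none of these was tested.

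The signalling genes that these receptors use were counted from lists written with earlier results of these data known. Over 5 lists of 83 genes, 58 were tested: 35 changed on differentiation (14 upward, 21 downward), 23 on withdrawal (19 upward, 4 downward), and 23 differed between dedifferentiated and undifferentiated cells (14 higher, 9 lower). Over all tested genes 59.6%, 46.4% and 29.4% were called, 31.7%, 23.2% and 16.1% upward and 27.9%, 23.2% and 13.3% downward. Their median log2 changes were -0.26, 0.19 and -0.04. They were the same with each stage without a count, as for *Csf1r* and *Stat4* in undifferentiated cells, set to the floor of 3 counts. The last count was 13 without undifferentiated replicate 2, 14 without dedifferentiated replicate 2 and 14 without dedifferentiated replicate 3. In the first project alone the counts were 23, 14 and 6, where 4358, 2606 and 1283 of all 10371 tested genes were called.

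Of 22 tested JAK-STAT genes, 5 rose and 9 fell on differentiation, 9 rose and 1 fell on withdrawal, and 7 differed upward and 3 downward between dedifferentiated and undifferentiated cells, against 59.6%, 46.4% and 29.4% of all genes called. *Jak1*, a kinase that gp130 and many interleukin receptors use, measured 207, 239 and 247 CPM in undifferentiated, 100.1, 117 and 116 CPM in differentiated and 166, 198 and 202 CPM in dedifferentiated libraries. The differentiated libraries were lowest, with log2 changes of -1.12 on differentiation and 0.78 on withdrawal (edgeR adjusted p = 3.06e-06 and 9.13e-05). *Stat5b*, a transcription factor of the pathway, changed by -1.34 and 1.12 in log2 units and *Pias3*, an inhibitor of STAT proteins, by -0.92 and 0.96 (edgeR adjusted p = 8.17e-07 and 7.55e-06, and 2.34e-05 and 3.93e-05). *Stat6*, the factor activated through *Il4r*, was not called on differentiation (edgeR adjusted p = 0.105) and rose on withdrawal from 66.2 ± 7.27 to 137 ± 11 CPM (SD, n = 3; edgeR adjusted p = 3.54e-05). *Stat2*, a factor of interferon signalling, fell on differentiation from 35.4 ± 3.15 to 28 ± 2.65 CPM (SD, n = 3; edgeR adjusted p = 0.0044). On withdrawal *Stat2* rose to 51.2 ± 3.23 CPM (SD, n = 3; edgeR adjusted p = 3.99e-05).

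Of 20 tested genes of *Il1* receptor and NF-kappaB signalling, 4 rose and 6 fell on differentiation, 5 rose and 1 fell on withdrawal, and 3 differed upward and 3 downward between dedifferentiated and undifferentiated cells, where 59.6%, 46.4% and 29.4% of all genes were called. *Rela*, an NF-kappaB subunit, measured 239, 275 and 253 CPM, 135, 164 and 151 CPM and 202, 209 and 219.9 CPM in undifferentiated, differentiated and dedifferentiated libraries, with the differentiated libraries lowest (log2 change on differentiation -0.83; edgeR adjusted p = 1.23e-05). *Myd88*, the adaptor of the family's receptors, and *Irak3*, which dampens their signal, changed by -1.08 and -1.73 on differentiation and by 0.99 and 1.17 on withdrawal, in log2 units (edgeR adjusted p = 3.11e-05, 1.84e-05, 0.000119 and 0.000582). *Tab2*, an adaptor of the kinase TAK1, fell on differentiation by 0.60 in log2 units (edgeR adjusted p = 0.000273). *Nfkb2*, a subunit of the alternative NF-kappaB pathway, rose on differentiation by a log2 change of 0.72 and stayed above undifferentiated cells by 0.54 (edgeR adjusted p = 7.76e-05 and 0.00171).

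Of 7 tested genes for colony-stimulating factors and related cytokines and receptors, 2 rose and 4 fell on differentiation, 3 rose and 0 fell on withdrawal, and 2 differed upward and 2 downward between dedifferentiated and undifferentiated cells (all genes: 59.6%, 46.4% and 29.4% called). *Kitlg*, stem cell factor, measured 163, 154 and 155 CPM in undifferentiated, 30.5, 38 and 40.6 CPM in differentiated and 95.1, 84.5 and 103 CPM in dedifferentiated libraries, without overlap, and fell 4.52-fold on differentiation (edgeR adjusted p = 7.23e-08) before rising 2.61-fold (edgeR adjusted p = 4.59e-06). *Crlf2*, the receptor chain for thymic stromal lymphopoietin, rose on differentiation from 25.5 ± 1.51 to 39.1 ± 2.91 CPM (SD, n = 3; edgeR adjusted p = 0.000688). Of the chemokine genes outside the name rule 2 were tested, *Ackr3* and *Rarres2*, and 2 rose and 0 fell on differentiation, 0 rose and 1 fell on withdrawal, and 1 differed upward and 0 downward between dedifferentiated and undifferentiated cells. *Rarres2*, which encodes the chemoattractant chemerin, rose on differentiation from 34 ± 14.7 to 67.4 ± 22.4 CPM, with overlapping libraries (SD, n = 3; edgeR adjusted p = 0.0268).

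**Figure D5:**
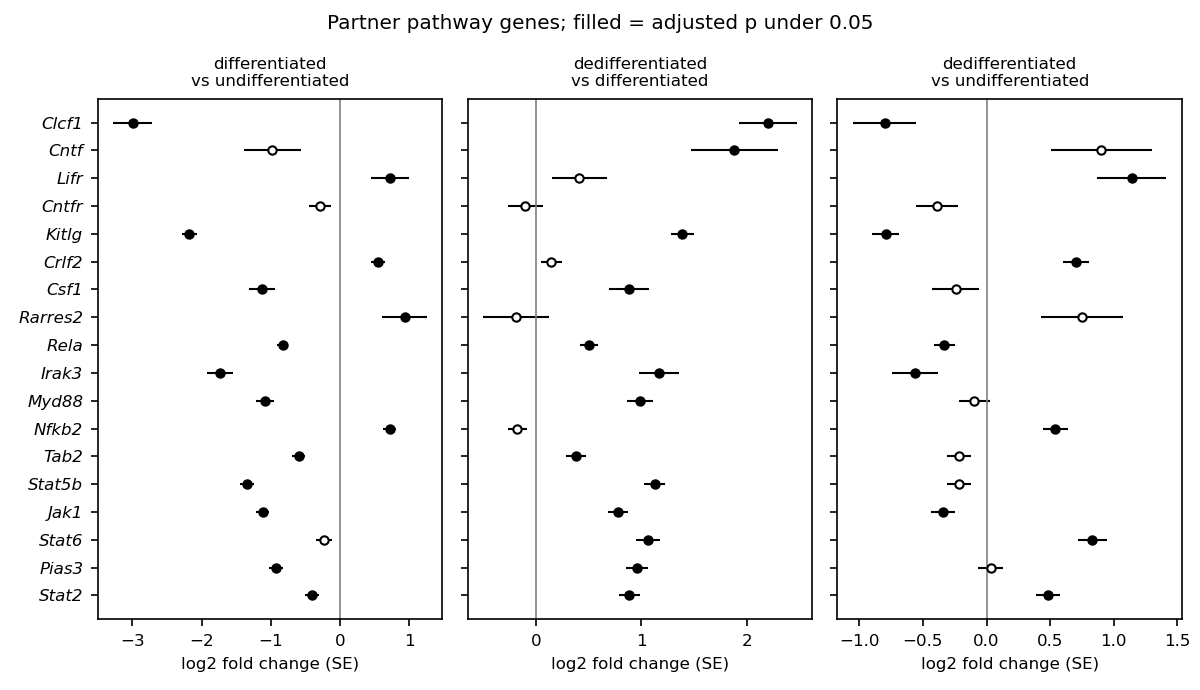
Fitted log2 fold change with SE of 18 genes from the 5 lists of signalling partners in the 3 comparisons, with filled points for an edgeR adjusted p under 0.05 (x axes differ). Most of the NF-kappaB and JAK-STAT genes shown, such as Rela, Irak3, Myd88, Stat5b and Jak1, lie left of 0 on differentiation and right of 0 on withdrawal.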

How the data were processed

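Cell mRNA was measured in 9 libraries, 3 for each of 3 stages. The deposited gene table holds estimated counts (expected counts, not normalized) that the authors made with Salmon, per the table's name and the submitters' processing notes, which also list Trim Galore, STAR and DESeq2 1.26.0. The genome build and whether strand was used in counting are not given in the sources used here. Column names were matched to samples by title, since a replicate suffix in the column names disagrees with the titles. The tables of small and long non-coding RNA were not used.

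Estimated counts were rounded to whole numbers (1.15% of values were fractional). Genes passing edgeR's filterByExpr (minimum count 10) were fitted with edgeR 4.0.16 in R 4.3.3 (TMM, quasi-likelihood test, all 9 libraries, no covariate), with Benjamini-Hochberg adjustment over all 10372 tested genes and a threshold of 0.05. Standard errors are the log2 change divided by the square root of F. CPM uses the total of all rows, 10058735 to 16212278 per library. Ratios with 1 to 3 counts in a stage carry exact 95% intervals that cover counting error only, and floors are 3 counts. Alternatives were a replicate block, DESeq2 1.42.0 size factors or Wald test, library size alone, no filter, the sequencing project as a factor or its first part alone, and leaving out each library. The scripts were tested on simulated data.

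Same-numbered undifferentiated and differentiated libraries deviated together (correlations 0.23 to 0.30), which met the rule for pairs. The fit reported is without the block, and the blocked value is printed beside a result of that comparison where it changes the call. The other 2 comparisons did not meet the rule in every pair.

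All 27 genes of the name rule with a mean of at least 1 CPM at a stage were named with values, and from each signalling list up to 5 genes with the smallest p among those with a mean of at least 10 CPM at a stage. The genes and lists were chosen with earlier results of these data known. Promoters are from RefSeq (GRCr8), where 23 of 27 genes had one, and the 50 bases after the start site were left out. A result for 2 genes is not reported here.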

Additional observations from a re-analysis of the deposited data

How the results depend on the processing

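Counts of chemokine and interleukin genes called, 17, 13 and 12 in the 3 comparisons (differentiation, withdrawal, dedifferentiated against undifferentiated), were 17 to 19, 13 to 15 and 11 to 12 over another normalization, library size alone, DESeq2's Wald test, no filter on low counts and the sequencing project as a factor. They were 16 to 20, 11 to 14 and 10 to 13 when each library was left out. Over all genes the latter ranges were 5558 to 6049, 3916 to 4513 and 2246 to 2876, and for the signalling lists 30 to 39, 21 to 24 and 13 to 22. In the first sequencing project alone, with fewer libraries, the last comparison gave 5 of the chemokine and interleukin genes. All-gene counts there were 4358, 2606 and 1283 in the 3 comparisons, and those of the signalling lists were 23, 14 and 6. The signalling count in the last comparison was 13 without undifferentiated replicate 2, 14 without dedifferentiated replicate 2 and 14 without dedifferentiated replicate 3. The cause of these shifts was not tested beyond the smaller number of libraries.

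With the replicate block, counts were 18, 14 and 13 for the chemokine and interleukin genes, 6325, 5031 and 3256 for all genes and 36, 26 and 22 for the signalling lists. The block added *Il11* on differentiation, and *Cxcl1* on withdrawal and between dedifferentiated and undifferentiated cells (adjusted p = 0.0481 and 0.0276), and changed no other call among these genes. In the last 2 comparisons not every pair of same-numbered libraries met the rule for pairs. Correlations of their deviations were 0.08 to 0.21 and 0.03 to 0.15. Over all stages 8 of 9 libraries correlated best with a library of their own number, so whether replicates were paired there was not settled.

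None of the changes called in all libraries reversed under any of these alternatives. Some log2 changes that were not called did. Over fits that left out 1 library, *Cxcl1*, *Il1rap*, *Il1rl1* and *Il23a* on differentiation ranged over -2.35 to 1.30, -0.34 to 0.10, -0.024 to 2.64 and -0.29 to 0.88. On withdrawal *Il17rc*, *Il1rl1* and *Il34* ranged over -0.13 to 0.22, -1.99 to 0.67 and -0.43 to 0.077. Between dedifferentiated and undifferentiated cells *Il17ra*, *Il18bp* and *Il6r* ranged over -0.14 to 0.013, -0.26 to 0.21 and -0.20 to 0.21. In the first project alone, *Il17ra*, *Il18bp* and *Il6r* in this comparison were 0.034, 0.41 and -0.13, *Il17rc* on withdrawal was -0.064 and *Il1rap* on differentiation 0.10. *Il6r* in the last comparison was -0.022 with DESeq2's size factors, -0.025 by its Wald test and -0.00897 without the filter. Other scalings moved the median of all genes by less than 0.1 on the log2 scale. In genes with 1 count or none at a stage the size of a fitted change depends on the prior count, and 48 genes were not detectable at this depth.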

Other observations

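In differentiated cells, replicate 1 was the highest of the 3 libraries for 15 of the 27 genes (55.6%), where it was highest for 30.5% of all tested genes. In dedifferentiated cells the counts were 16 of 27 (59.3%) and 37.8%, and in undifferentiated cells 8 of 27 (29.6%) and 31.1%. The genes share their libraries and this pattern was noticed in the data, so the shares are given without a test. Values of *Cxcl12*, *Cxcr4*, *Cxcl14* and *Il34* in both later stages were highest in replicate 1, while *Ccl2* in differentiated cells was highest in replicate 2.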
